A study of Arabidopsis thaliana with 21 samples.

Results

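The chloroplast genome of Arabidopsis thaliana encodes part of the machinery that expresses it, and 30 of these expression and housekeeping genes are described here. They were chosen by locus and function, without a measured value in the rule, from 33341 loci counted in each library, of which 133 were chloroplast loci and 83 of those protein-coding. The 30 were 4 rpo genes, matK, 12 rps genes, 9 rpl genes, clpP1, accD and the 2 long genes ycf1 and ycf2. Whole rosette shoots of Col-0 came from plants grown in soil for 21 days at 22 °C with a day of 16 h and a night of 8 h. One group was taken in the dark at the end of the night. The other 6 groups were taken after 2, 5 or 8 h of light from an LED source, at 100 µE (standard light) or 500 µE (high light). Each group held 3 libraries of total RNA, 21 in all, and the plants carried no transgene or mutation named in the labels. The series sets plants of 1 genotype under both intensities side by side, and all light groups share the same 3 dark libraries as their reference. The design text calls the 3 samples of a group biological, and no source used here gives the number of plants in each. The p-values weigh differences between groups against the spread of these samples.

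Chloroplast genes are read by a polymerase of bacterial type, whose core subunits are products of the rpo genes, and by a phage-type polymerase that comes from the nucleus. The rps and rpl genes encode proteins of the small and large subunit of the bacterial-type plastid ribosome. matK encodes a splicing factor for plastid introns, clpP1 a catalytic subunit of the plastid Clp protease, and accD the beta-carboxyltransferase subunit of the plastid acetyl-CoA carboxylase of fatty acid synthesis. ycf1 and ycf2 encode large proteins of the inner envelope that have been assigned to protein import complexes. Many of these genes lie next to each other and are transcribed together.

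Several neighbours are very close, so the ends and starts that join them are shown, with the last bases of the first gene and the first bases of the next in capitals where they do not overlap. Between rpoB and rpoC1 the gap was 26 bases, and between rpl23 and rpl2 it was 18 bases. In rpl22 and rps3 the last 16 bases of the first are also the first 16 of the second, and these are in capitals. Sequences are from the RefSeq chloroplast genome of TAIR10.1, read 5′ to 3′ on the coding strand, which is the minus strand at Pltd:23073-23122, Pltd:85832-85873 and Pltd:83455-83494.
rpoB to rpoC1: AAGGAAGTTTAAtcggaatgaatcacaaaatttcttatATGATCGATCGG
rpl23 to rpl2: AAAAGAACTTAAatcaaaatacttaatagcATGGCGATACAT
rpl22 to rps3: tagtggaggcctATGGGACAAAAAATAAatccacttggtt

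The 2 ribosomal protein genes rpl32 and rpl33 had, with rps16, the widest ranges between libraries, and their whole coding sequences are shown because they are short, with the start and stop codons in capitals. Both are on the plus strand, rpl32 at Pltd:113449-113607 and rpl33 at Pltd:67488-67688.
rpl32: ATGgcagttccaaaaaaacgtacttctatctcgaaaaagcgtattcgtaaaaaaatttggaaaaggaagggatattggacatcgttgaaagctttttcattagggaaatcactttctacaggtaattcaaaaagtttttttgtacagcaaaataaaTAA
rpl33: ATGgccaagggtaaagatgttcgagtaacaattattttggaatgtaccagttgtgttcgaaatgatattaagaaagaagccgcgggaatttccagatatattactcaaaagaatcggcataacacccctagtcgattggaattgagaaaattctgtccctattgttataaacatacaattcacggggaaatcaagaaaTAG

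The libraries held 6545003 to 31449700 counts (median 13592728). Levels are in CPM, the count of a gene per 1e6 counts of its library, with library sizes scaled by the trimmed mean of M-values (TMM). Ribosomal RNA, which the kit was meant to remove, took 0.0423% to 32.9% of the counts, and in 20 of the 21 libraries most of it was nuclear-encoded. Its share in replicates 1, 2 and 3 was 1.91, 6.96 and 0.133% in the dark, 17.2, 13.1 and 4.57% at 2 h of standard light, 2.07, 2.85 and 4.55% at 5 h and 4.02, 8.55 and 3.58% at 8 h. In high light it was 0.295, 0.0752 and 4.98% at 2 h, 0.072, 0.0423 and 32.9% at 5 h and 19, 26 and 24% at 8 h. The groups at 8 h of high light and 2 h of standard light therefore held the most rRNA on average (23% ± 3.59 and 11.6% ± 6.44, SD, n = 3). The part of this share in the results below was not tested, beyond a fit with the share as a covariate.

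The leaf markers RBCS1A and CAB1 had medians of 5561 and 3335 CPM, whereas the root markers EIR1, EXPA7 and SHV2 had medians of 0. In whole shoots, fewer cells of a type and less RNA per cell cannot be told apart. The 30 genes together held 4.09% to 10.1% of the chloroplast protein-coding counts of a library.

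In 5 of the 21 libraries rpl33 had over 3 times as many counts as its neighbour rps18, and they are called set apart here. The ratio compares 2 genes within a library and does not depend on the scaling. The ratio of rpl33 to rps18 counts was 3.3 to 7.14 in dark replicates 2 and 3, in replicate 2 at 2 h of high light and in replicates 1 and 2 at 5 h of high light. In the other 16 libraries it was 0.74 to 2.61, so the cut at 3 lies between close values (2.61 and 3.3) and not in a wide gap. Of these 5 libraries, 4 had under 0.3% rRNA, but dark replicate 2 had 6.96%, and replicate 1 at 2 h of high light had 0.295% with a ratio of 2.61. Results that rest on them are given below with and without them, a comparison chosen after the data were seen. For rpl33 and rps18 themselves the choice used their own counts, so their values without these libraries are descriptions. Without the 5, dark and 5 h of high light held 1 library each, which was assumed to vary like the other groups. The same holds for 2 h and 5 h of high light without the 5 libraries under 0.3% rRNA.

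**Figure D1:**
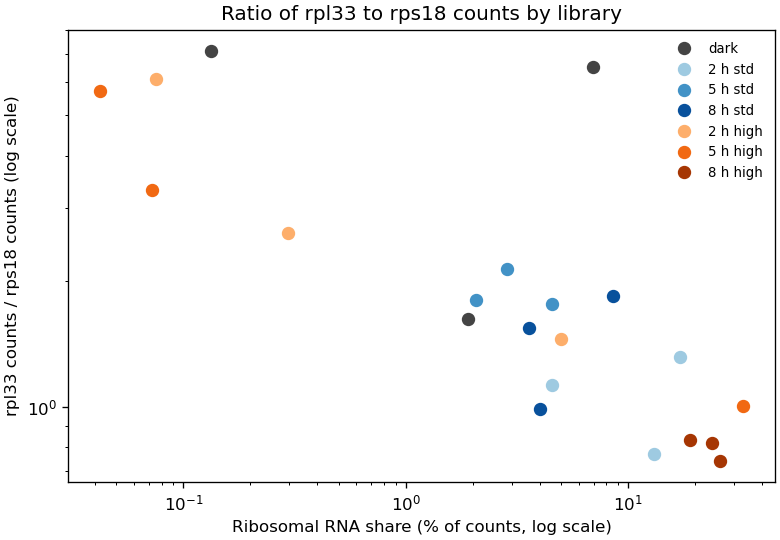
Counts of rpl33 over those of rps18 against the share of ribosomal RNA, in percent of all counts, both axes logarithmic, 1 point per library and coloured by group. The ratio is 0.74 to 2.61 in 16 libraries and 3.3 to 7.14 in the other 5.

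matK had 0 counts in all 21 libraries, where 3 counts would be 0.0954 to 0.458 CPM, a limit on assigned reads and not on the transcript. Its span in the counted annotation lies wholly inside that of the tRNA gene trnK on the same strand, which held 768488 counts, and the file headers name no option that would count a read in both. The level of matK was thus not measurable from these counts, and 29 of the 30 genes were tested. The locus used for rps12 is the 5′ exon alone. In the inverted repeat, rpl2, rpl23, ycf2 and rps7 each have a second copy of identical sequence, and the listed copy held 7.74%, 9.35%, 94.8% and 4.77% of the counts of both. Values for these 4 genes are uncertain as to the copy. Other members, ycf1 among them, were not checked for stretches with a second copy.

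Per kilobase of the counted span, rps14 stood highest, with a mean level of 15005 CPM per kb over 21 libraries. It was followed by rpl33 (4837), rpl32 (3298) and the rps12 exon (1792). Among the 29 genes with counts ycf1 (108), rpl23 (111), rpl2 (117) and rps7 (124) were lowest, the last 3 with most of their reads at the other copy. The 3 genes rpoB, rpoC1 and rpoC2 lay at 168, 280 and 144 CPM per kb, below rpoA at 591 CPM per kb, which lies in another gene cluster.

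Across the 7 groups, 27 of the 29 genes differed at an adjusted p under 0.05 (edgeR quasi-likelihood F test, Benjamini-Hochberg over 19626 loci), where 69.3% of all loci tested did. The other two, rpl23 and rps14, did not pass. Group means peaked after 2 h of standard light for 25 of the 29 genes, and 24 had their lowest mean after 5 h of high light. The genes with a mean highest in the dark were rpl33, rpl2 and rps7, and rpl32 was highest after 8 h of high light.

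**Figure D2:**
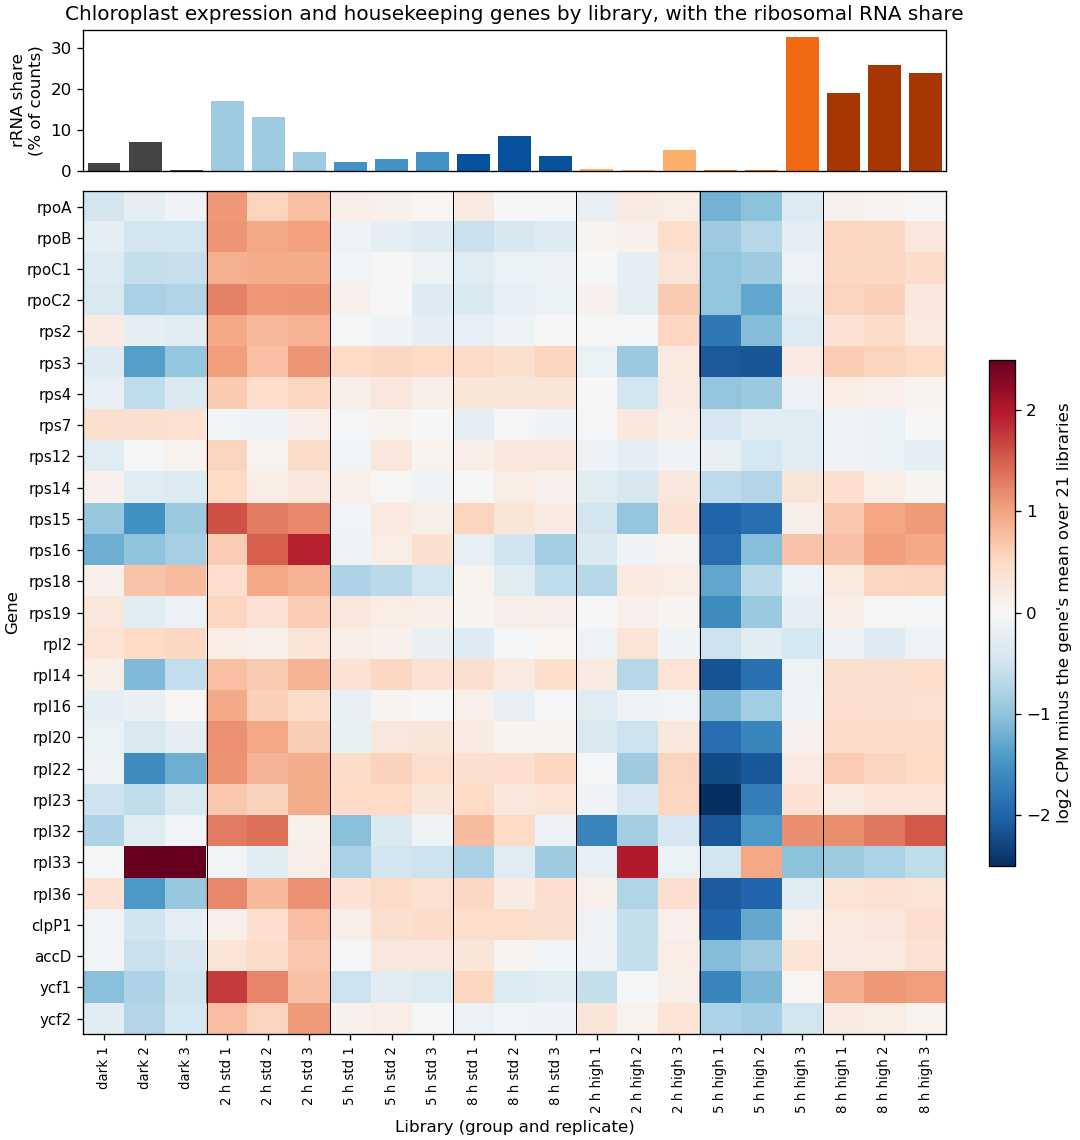
Log2 CPM of 27 genes in 21 libraries, each gene relative to its own mean (red above, blue below), with the ribosomal RNA share of each library as bars on top. The 3 libraries at 2 h of standard light are red for most genes, and replicates 1 and 2 at 5 h of high light, with 0.072% and 0.0423% rRNA, are blue for most, unlike replicate 3 with 32.9%.

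From darkness to 2 h of standard light, 21 of the 29 genes rose, 2 fell (rpl33 and rps7) and 6 did not pass. Of all loci tested, 42.5% were called in this comparison, 21.1% as higher, so the share of the genes that rose was well above that of all loci. The median log2 change of the 29 was 1.18, against 0.03 over all loci, and it was 0.68 with the rRNA covariate. All 4 rpo genes, 8 of 12 rps genes, 6 of 9 rpl genes, accD, ycf1 and ycf2 rose. The calls for 15 of the 23 genes held in all 19 other settings tried, including each library left out in turn, scaling to chloroplast counts and the covariate.

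At 5 h of standard light 7 genes were higher than in the dark and 4 were lower, where 46.7% of all loci were called, with a median of 0.40. The 11 calls became 2 without dark replicate 2, 5 without dark replicate 3, and 6, 3 and 6 without replicates 1, 2 and 3 of standard light. At 8 h of standard light 3 were higher and 4 lower against 42.9% of all loci, and the median was 0.37. The 7 calls became 11 without dark replicate 1 and 4 without dark replicate 2. In both directions together, the shares of genes called at 5 and 8 h were below those of all loci. As higher and as lower, 22.9% and 23.8% of all loci were called at 5 h, and 21.1% and 21.7% at 8 h. The 7 of 29 genes higher at 5 h were thus near the share of all loci.

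In high light against darkness, 4 genes were higher at 2 h (rpoB, rpoC1, rpoC2 and ycf2), where 43.3% of all loci were called. These 4 calls became 8 without dark replicate 1 or without replicate 2 of high light, and 1 without replicate 3 of high light. At 5 h, 7 were lower (rps2, rps7, rps18, rps19, rpl2, rpl33 and rpoA), against 47.2% of all loci, and without replicate 3 of high light 22 genes were called. At 8 h, 11 were higher and 3 were lower (rps7, rpl2 and rpl33), against 47.3% of all loci, and without dark replicate 2 the 14 calls became 9. In both directions together, the shares called at 2 and 5 h were below those of all loci, and that at 8 h was close to it. By direction, 21.8% of all loci were called as higher at 2 h, 22.8% as lower at 5 h, and 23.4% as higher and 23.9% as lower at 8 h. The 7 of 29 genes lower at 5 h were thus near the share of all loci. At 8 h the 11 of 29 higher were above it and the 3 of 29 lower were below it. The medians were 0.33, -0.33 and 0.63 at the 3 times, the last 0.15 with the rRNA covariate. The median at 5 h turned to 0.22 with libraries scaled to chloroplast protein-coding counts, to 0.27 without the 5 libraries under 0.3% rRNA and to 0.11 without the 5 libraries set apart by the rpl33 to rps18 ratio. All 6 comparisons with darkness share the same 3 dark libraries, 2 of which were among those set apart.

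High light was compared with standard light at each time to see how intensity changed these transcripts. At 2 h, 6 genes were lower in high light (rpoB, rpoC1, rpoC2, rpl16, rps15 and ycf1) and 23 did not pass, where 2.66% of all loci were called, 1.22% as lower and 1.45% as higher. The share of the 29 genes called was 20.7%, above that of all loci. The median log2 change was -0.73, or -0.45 with the rRNA covariate, and 27 of the 29 genes had a value below 0. No call at 2 h held in every setting. With the rRNA share as a covariate 1 gene passed, and it was not among these 6, whose calls were all lost. Without the 5 libraries under 0.3% rRNA, 1 library was left at 2 h of high light, and 0 genes passed in edgeR (13 at an unadjusted p under 0.05). Without replicate 1 of standard light, or without replicate 1 or 2 of high light, 0 passed in edgeR (14 to 19 at an unadjusted p under 0.05), and without replicate 2 of standard light it called 1. DESeq2 called 15 and limma voom 7, and 17 were called without the 5 libraries set apart by the rpl33 to rps18 ratio, with a median of -0.68.

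At 5 h, 9 genes were lower in high light, among them rpoA, rps2, rps4, rps19, rpl14, rpl36, clpP1 and ycf2, where 12% of all loci were called, 4.74% as lower and 7.29% as higher. The share of the 29 genes called was 31%. The median was -0.71, and it was 0.08 with libraries scaled to chloroplast protein-coding counts. With that scaling the median of all loci was 0.94 at 5 h, and 0.27 and 0.23 at 2 and 8 h, against -0.03 to 0.02 at the 3 times with TMM. The comparison rested on libraries that differed in rRNA: replicates 1 and 2 in high light had under 0.3% and replicate 3 had 32.9%. Without replicate 3 in high light 23 genes were called, and without replicate 1 or 2 in high light 4 or 3. Leaving out replicate 1 or 2 of standard light gave 5 or 4. In the fit that left out the 5 libraries under 0.3% rRNA, and with them replicates 1 and 2, 1 library of the group was left, 0 passed in edgeR and 4 had an unadjusted p under 0.05. The median was then -0.22. DESeq2 and limma voom each called 18 with all libraries.

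At 8 h, 5 genes were higher in high light (rpoB, rpoC1, rpoC2, rps16 and ycf1) and 24 did not pass, where 15.4% of all loci were called, 7.79% as higher and 7.62% as lower. In both directions together, the share of the genes called was close to that of all loci. All 5 calls were higher, and 5 of 29 lies above the 7.79% of all loci. The median was 0.11, and -0.05 with the rRNA covariate. One call, that of rpoB, held in all 19 other settings. Leaving out any 1 of the 6 libraries left 1 to 3 calls. Over the mean of the 3 times 13 genes were lower in high light, against 21.9% of all loci (9.92% as lower, 12% as higher), with a median of -0.36 that turned to 0.05 with libraries scaled to chloroplast protein-coding counts. Without replicate 3 at 5 h of high light 24 were called.

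**Figure D3:**
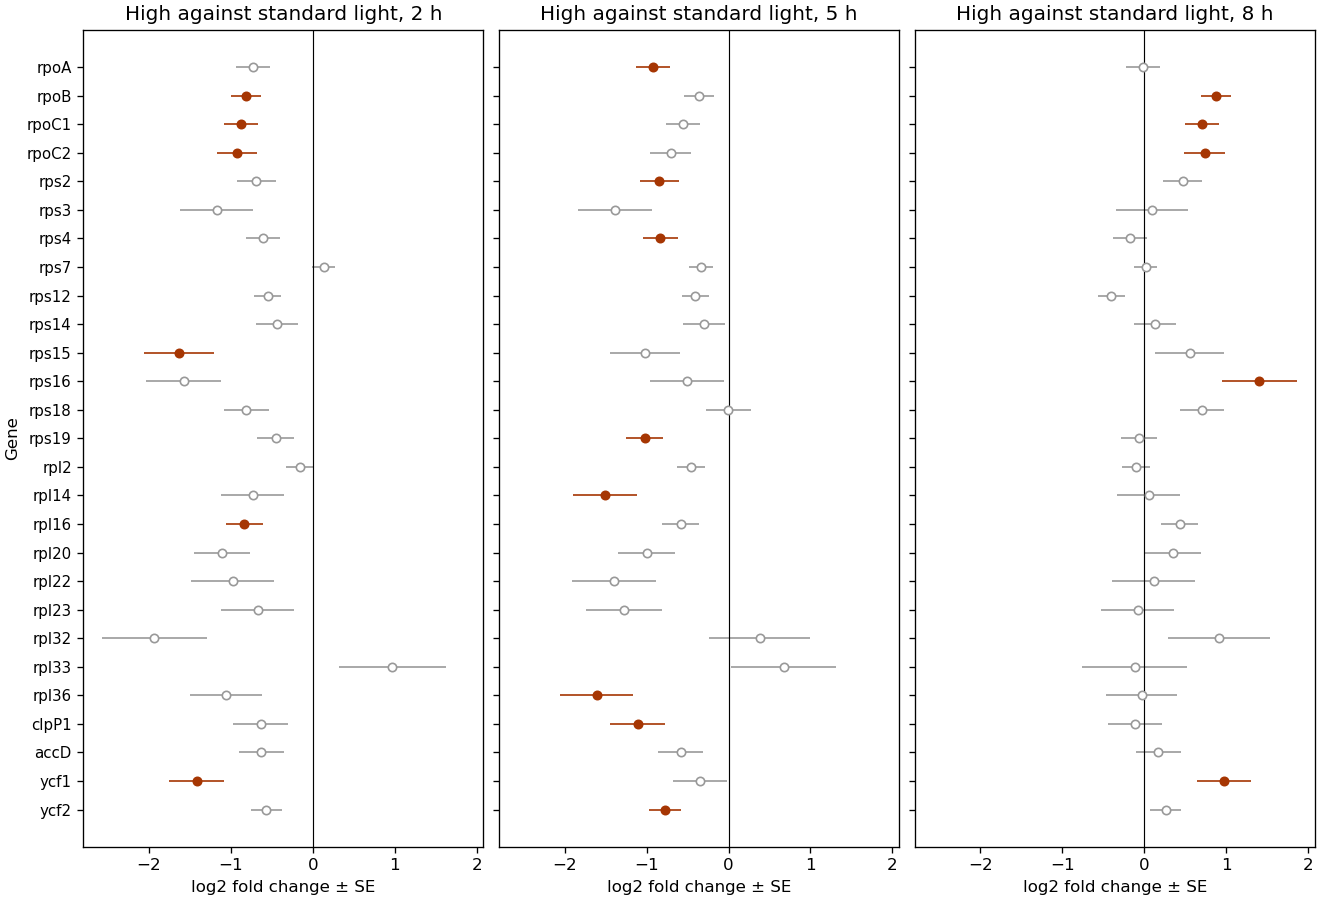
Log2 fold change of high against standard light, with its standard error, for 27 genes at 2, 5 and 8 h; filled points passed an adjusted p of 0.05. Most points lie below 0 at 2 and 5 h, whereas at 8 h rpoB, rpoC1, rpoC2, rps16 and ycf1 lie above 0 and passed.

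The change in the high-light effect from 2 h to 8 h was tested as a contrast of its own. For 9 genes the effect was higher at 8 h than at 2 h, where 10.2% of all loci were called, 5.07% in that direction and 5.13% in the other. These were rpoB, rpoC1, rpoC2, rps2, rps15, rps16, rps18, rpl16 and ycf1, and 27 of the 29 genes had a difference above 0, with a median of 1.02, or 0.21 with the rRNA covariate. The calls for rpoB, rpoC1, rpoC2 and ycf1 held in all 25 other settings. With the rRNA covariate these were the 4 genes called. The groups in this contrast also differed in rRNA in the same order: 1.78% ± 2.77 in high and 11.6% in standard light at 2 h, and 23% in high and 5.38% ± 2.75 in standard light at 8 h (SD, n = 3).

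rpoB (ATCG00190), for the beta subunit of the plastid-encoded polymerase, had 422, 361 and 358 CPM in the 3 dark libraries and 1073, 971 and 1019 CPM at 2 h of standard light. The groups were far apart, and the rise was log2 fold change 1.42 ± 0.19, adjusted p = 1.5e-06. At 8 h it had 341, 376 and 399.9 CPM in standard and 721, 719 and 606 CPM in high light. Every high-light library was above every standard-light library (log2 fold change 0.87 ± 0.19, adjusted p = 0.00229). At 2 h the order was the opposite, with 522, 539.9 and 681 CPM in high light, below all 3 libraries in standard light (log2 fold change -0.81 ± 0.19, adjusted p = 0.0202, or 0.0801 with the rRNA covariate). The call at 2 h was lost in 3 of the fits that left out 1 library (adjusted p up to 0.108). The difference between the effects was 1.69 ± 0.26 on the log2 scale (adjusted p = 0.000358).

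rpoC1 (ATCG00180), for the beta′ subunit, had 579, 488 and 494 CPM in the dark and 1369.9, 1412 and 1407 CPM at 2 h of standard light (log2 fold change 1.42 ± 0.21, adjusted p = 5.58e-06). rpoC2 (ATCG00170), for the beta′′ subunit, had 411, 305 and 318 and 1284, 1128 and 1141 CPM in the same groups (log2 fold change 1.78 ± 0.25, adjusted p = 3.33e-06). For both genes the lowest library at 2 h of standard light was above every dark library. At 8 h rpoC1 had 599, 655 and 669.8 CPM in standard and 1058, 1051 and 1018 CPM in high light (log2 fold change 0.70 ± 0.20, adjusted p = 0.0209). rpoC2 had 407, 460.0 and 476 and 787, 809.6 and 639 CPM (log2 fold change 0.73 ± 0.24, adjusted p = 0.0425). The groups did not overlap for either gene, but both calls were lost in 5 of the 6 fits that left out 1 library, with adjusted p up to 0.0835 for rpoC1 and 0.141 for rpoC2. Only without replicate 3 of high light did they hold. At 2 h of high light rpoC1 had 731, 631 and 927 CPM and rpoC2 had 577, 454 and 841 CPM, all below the libraries in standard light. The calls of both as lower had an adjusted p of 0.0852 and 0.181 with the rRNA covariate. Each was lost in 4 of the 6 fits that left out 1 library (up to 0.127 and 0.206). Relative to dark rpoC1 and rpoC2 rose at 2 h of high light by 0.55 ± 0.20 and 0.86 ± 0.25 (adjusted p = 0.0315 and 0.00623). This rise of rpoC1 was lost in 4 of the 6 fits that left out 1 library (adjusted p up to 0.18). That of rpoC2 was lost in 1 of them (0.0738).

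rpoA (ATCG00740), for the alpha subunit, is the last gene of the long ribosomal protein cluster, away from the other rpo genes. It had 405, 472 and 522 CPM in the dark and 1174, 812 and 929 CPM at 2 h of standard light (log2 fold change 1.06 ± 0.21, adjusted p = 0.00025), and the groups did not overlap. At 8 h it had 647, 548 and 550.0 CPM in standard and 593, 584 and 554 CPM in high light, ranges that overlapped (log2 fold change -0.01 ± 0.21, adjusted p = 0.983). At 5 h it had 617, 607 and 574 CPM in standard and 243, 273 and 435 CPM in high light (log2 fold change -0.92 ± 0.21, adjusted p = 0.00586). Every high-light library was lower, but with libraries scaled to chloroplast counts the adjusted p was 0.762, and without the libraries under 0.3% rRNA 0.364.

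**Figure D4:**
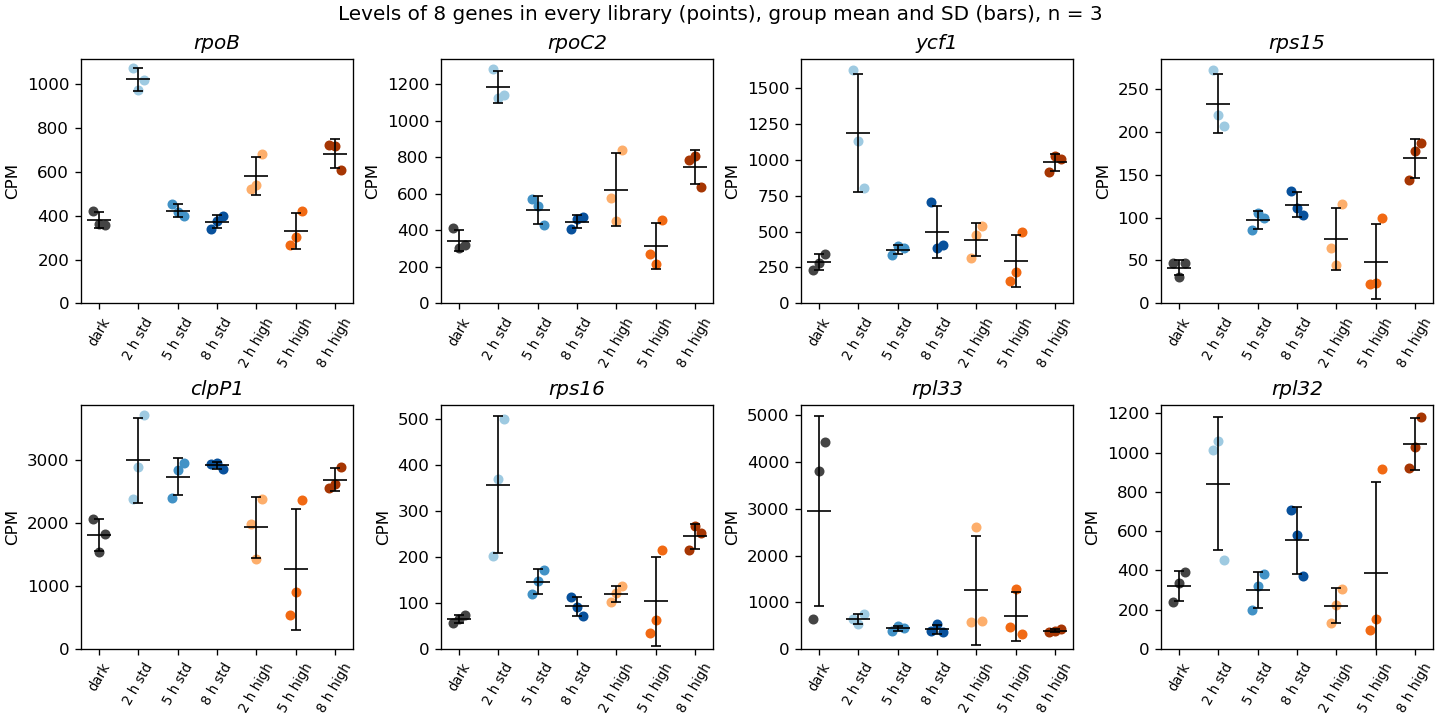
CPM of rpoB, rpoC2, ycf1, rps15, clpP1, rps16, rpl33 and rpl32 in every library (points), with the mean and SD of each group of 3 (bars), from dark through standard light to high light. rpoB is highest at 2 h of standard light (971 to 1073 CPM), and rpl33 is high in 2 of 3 dark libraries and in single libraries at 2 and 5 h of high light.

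Among the small-subunit genes, rps15 (ATCG01120), for protein S15, had 46.6, 31.3 and 47 CPM in the dark and 271, 219.8 and 207 CPM at 2 h of standard light. The groups did not overlap (log2 fold change 2.48 ± 0.44, adjusted p = 0.000183). It stayed above dark at 8 h of standard light, with 131, 111 and 103 CPM, and the call held in all 19 other settings (log2 fold change 1.47 ± 0.43, adjusted p = 0.00993). In high light it had 65.1, 44.9 and 115 CPM at 2 h, below every library of standard light (log2 fold change -1.63 ± 0.43, adjusted p = 0.0488), and 143, 177 and 186 CPM at 8 h. The call at 2 h had an adjusted p of 0.11 with the rRNA covariate and was lost in 5 of the fits that left out 1 library (up to 0.193). The effect of high light differed between 2 h and 8 h by 2.18 ± 0.60 (adjusted p = 0.0263, or 0.102 with the rRNA covariate).

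rps16 (ATCG00050), for protein S16, is a gene with an intron inside the counted span. It had 55.3, 64.4 and 73.1 CPM in the dark, 202, 368 and 499.6 CPM at 2 h of standard light and 101, 122 and 136 CPM at 2 h of high light. Both light groups were above every dark library, but of these comparisons only that with standard light passed (log2 fold change 2.47 ± 0.47, adjusted p = 0.000389; high light 0.90 ± 0.45, adjusted p = 0.121). At 8 h it had 113, 91.9 and 71.7 CPM in standard and 215, 267 and 251 CPM in high light, groups that did not overlap (log2 fold change 1.40 ± 0.46, adjusted p = 0.045). With the rRNA covariate the adjusted p was 0.0651, and the call was lost in all 6 fits that left out 1 library (up to 0.159). Its effect of high light had the largest change from 2 h to 8 h among the 9 called genes (2.98 ± 0.65, adjusted p = 0.00744).

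rps3 (ATCG00800), for protein S3, rose from 327 ± 124 to 1128 ± 139.5 CPM from dark to 2 h of standard light (SD, n = 3; log2 fold change 1.79 ± 0.46, adjusted p = 0.00376). rps2 and rps4 rose by 0.95 ± 0.24 and 0.94 ± 0.21 (adjusted p = 0.00266 and 0.000827), and rps12 by 0.46 ± 0.17 (adjusted p = 0.029). The call of rps12 was lost with libraries scaled to chloroplast counts (adjusted p = 0.325). rps14 (ATCG00330), which lies among photosystem genes and was the highest gene per kilobase, had 4806, 3673 and 3498 CPM in the dark and 6287, 5060.2 and 5412 CPM at 2 h of standard light. The groups did not overlap, but the change did not pass (log2 fold change 0.48 ± 0.26, adjusted p = 0.131). rps19 had 0.54 ± 0.22 in that comparison and did not pass (adjusted p = 0.0507).

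rps18 (ATCG00650), for protein S18, showed another course. It had 391, 585 and 619 CPM in the dark, 483, 704 and 660.3 CPM at 2 h of standard light and 209, 225 and 259 CPM at 5 h. The level at 2 h overlapped that in the dark (log2 fold change 0.21 ± 0.27, adjusted p = 0.563). At 5 h every library was lower (log2 fold change -1.20 ± 0.28, adjusted p = 0.000886), a call that held in all 19 other settings. These include the fit without the 5 libraries set apart, with -0.76, a description since the counts of rps18 were used to choose them. rps7 (ATCG00900), whose reads cannot be split between 2 identical copies, had 75.3, 76.1 and 75 CPM in the dark and 54.5, 53.5 and 64.6 CPM at 2 h of standard light, below every dark library (log2 fold change -0.39 ± 0.14, adjusted p = 0.0289). With the counts of both copies summed the change was -0.19 ± 0.18 (adjusted p = 0.427), so the call did not hold.

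Among the large-subunit genes, rpl33 (ATCG00640), for protein L33, had 636, 3810.3 and 4425 CPM in the dark and 635, 543 and 745 CPM at 2 h of standard light. Dark replicate 1 was inside the range of the light libraries, and dark replicates 2 and 3 were far above it. The fall of -2.21 ± 0.67 passed (adjusted p = 0.0146), and without the 5 libraries set apart it was 0.01. At 8 h of standard light it had 378, 535 and 356 CPM, below all dark libraries (log2 fold change -2.81 ± 0.69, adjusted p = 0.00358). Dark replicate 1 alone was left without the libraries set apart, and the change was then -0.56. The values without these libraries are descriptions, since the counts of rpl33 itself were used to choose them. In high light it had 570.4, 2609.5 and 593 CPM at 2 h and 479, 1293 and 323 CPM at 5 h, where a single library was high each time.

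rpl32 (ATCG01020), for protein L32, stands apart from other ribosomal protein genes in the small single-copy region. It had 240.3, 334 and 391 CPM in the dark, 1016, 1059.7 and 451 CPM at 2 h of standard light and 924, 1027 and 1183 CPM at 8 h of high light. The last group was above every dark library (log2 fold change 1.70 ± 0.64, adjusted p = 0.0377, or 0.348 with the rRNA covariate). That call was lost in all 6 fits that left out 1 library (up to 0.111). At 2 h of standard light all libraries were above dark but the change did not pass (1.39 ± 0.63, adjusted p = 0.0886). At 5 h of high light it had 95, 153 and 919 CPM, with the high value in the library of 32.9% rRNA.

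rpl22 (ATCG00810), for protein L22, had 289, 108 and 136 CPM in the dark and 691, 569 and 605 CPM at 2 h of standard light, with no overlap (log2 fold change 1.81 ± 0.52, adjusted p = 0.00947). rpl36, rpl20 and rpl14 rose by 1.53 ± 0.44, 1.18 ± 0.35 and 1.18 ± 0.39 (adjusted p = 0.00904, 0.0083 and 0.0189). The calls of rpl36 and rpl20 held in all 19 other settings. That of rpl14 had an adjusted p of 0.071 with the rRNA covariate and was lost in 3 of the fits that left out 1 library (up to 0.0933). rpl16 (ATCG00790), for protein L16, had 1316, 1338 and 1549.8 CPM in the dark and 2939, 2302 and 2106 CPM at 2 h of standard light (log2 fold change 0.81 ± 0.23, adjusted p = 0.00551), and 1239.5, 1417 and 1457 CPM at 2 h of high light. High light was below every standard-light library (log2 fold change -0.84 ± 0.23, adjusted p = 0.0456), a call lost in 5 of the 6 fits that left out 1 library, with adjusted p up to 0.213. rpl23 and rpl2, both with a second identical copy, had 1.25 ± 0.45 and -0.24 ± 0.17. With the copies summed they had 0.96 ± 0.26 (adjusted p = 0.00452) and -0.03 ± 0.18 (adjusted p = 0.911).

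The 11 genes from rpl23 to rpoA follow each other on the minus strand, and the junction of rpl23 with rpl2 and the overlap of rpl22 with rps3 printed above lie in it. From dark to 2 h of standard light 9 of the 11 rose, and the log2 changes of the 11 ran from -0.24 for rpl2 to 1.81 for rpl22. The estimates varied along the cluster, and differences between genes were not tested. rps3 had 1.79 ± 0.46 beside rpl16 with 0.81 ± 0.23, and rpl23 had 1.25 ± 0.45 beside rpl2 with -0.24 ± 0.17. The listed copies of rpl23 and rpl2 held 9.35% and 7.74% of the counts of both copies. At 5 h, in high against standard light, 5 of the 11 fell. rpl36 had -1.61 ± 0.44 and rpl14 -1.51 ± 0.39, while rpl16 had -0.58 ± 0.22 and rpl2 -0.45 ± 0.17. At 8 h the median over the 11 was -0.01, with -0.03 ± 0.43 for rpl36, 0.06 ± 0.38 for rpl14 and 0.43 ± 0.22 for rpl16.

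Another run on the minus strand is that of rpoB, rpoC1, rpoC2 and rps2. All 4 rose from dark to 2 h of standard light, by 0.95 to 1.78 on the log2 scale, and for all 4 the effect of high light was higher at 8 h than at 2 h, by 1.15 to 1.69. rps2 (ATCG00160), for protein S2 and the gene farthest from the start of rpoB, had the lowest value in both, and its call in the second was lost with the rRNA covariate (adjusted p = 0.251). The ratio of rpoC2 to rpoB counts was 0.714 to 1.27 over the 21 libraries.

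clpP1 (ATCG00670), for the catalytic subunit of the Clp protease, had 2062, 1540.1 and 1829 CPM in the dark and 2379, 2894 and 3713 CPM at 2 h of standard light. No library overlapped, and the change did not pass (log2 fold change 0.73 ± 0.33, adjusted p = 0.0817). At 5 h it had 2399.7, 2840.0 and 2959 CPM in standard and 544, 898 and 2360.2 CPM in high light, where replicate 3 lay close to the standard-light libraries (log2 fold change -1.11 ± 0.34, adjusted p = 0.0315). Without the 5 libraries under 0.3% rRNA the adjusted p was 0.792. At 8 h it had 2931, 2955 and 2859 CPM in standard and 2554, 2627 and 2891 CPM in high light (log2 fold change -0.12 ± 0.33, adjusted p = 0.868).

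accD (ATCG00500), for the carboxyltransferase subunit of fatty acid synthesis, had 647, 464 and 519 CPM in the dark and 856, 932 and 1094 CPM at 2 h of standard light. Every light library was higher (log2 fold change 0.82 ± 0.27, adjusted p = 0.0179), and the adjusted p was 0.0587 with the rRNA covariate and 0.0783 without dark replicate 2. High light at 2 h gave 641, 448 and 776 CPM, below all standard-light libraries, and did not pass (log2 fold change -0.63 ± 0.27, adjusted p = 0.219).

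ycf1 (ATCG01130), a long reading frame, had 234, 283 and 345 CPM in the dark and 1624, 1127 and 806 CPM at 2 h of standard light. The lowest light library was above the highest dark library (log2 fold change 2.04 ± 0.34, adjusted p = 4.15e-05). In high light it had 319, 473 and 541 CPM at 2 h, below all standard-light libraries (log2 fold change -1.42 ± 0.33, adjusted p = 0.0233). That call had an adjusted p of 0.182 with the rRNA covariate and was lost in 4 of the 6 fits that left out 1 library (up to 0.15). At 8 h it had 705, 384 and 406 CPM in standard and 916, 1024 and 1001 CPM in high light, again without overlap but in the opposite order (log2 fold change 0.98 ± 0.33, adjusted p = 0.0483). The 8 h call had an adjusted p of 0.086 with the rRNA covariate and was lost in 5 of the 6 fits that left out 1 library. With the covariate the difference between the times, 2.39 ± 0.47 without it (adjusted p = 0.00249), had an adjusted p of 0.0354.

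ycf2 (ATCG00860) had 1146, 841 and 1019 CPM in the dark, 2374, 2050.5 and 2917 CPM at 2 h of standard light and 1712, 1482 and 1767 CPM at 2 h of high light. Both light groups were above every dark library (log2 fold change 1.29 ± 0.19, adjusted p = 7.89e-06 in standard light; log2 fold change 0.72 ± 0.19, adjusted p = 0.00339 in high light), and both calls held in all 19 other settings. At 5 h it had 1504, 1550.3 and 1357 CPM in standard and 798, 774 and 1008 CPM in high light (log2 fold change -0.77 ± 0.19, adjusted p = 0.00962), a change of 0.10 with libraries scaled to chloroplast counts.

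The members differed in base composition, from 28.7% G+C in ycf1, 30.7% in rps15 and 30.8% in rpl32 to 48.2% in the rps12 exon. Across the 29 genes, Spearman's rho between G+C and log2 change was -0.46 for 2 h of standard light against dark. For high against standard light it was 0.65 at 2 h, 0.10 at 5 h and -0.52 at 8 h. These are descriptions over genes of the same libraries, which also share the rRNA differences between groups, and the part of base composition in the results was not tested. With span length, rho was 0.23, -0.05, 0.04 and 0.36 in the same 4 comparisons.

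The 48 chloroplast-encoded photosynthesis genes gave the nearest comparison. From dark to 2 h of standard light 15 rose and 4 fell, with a median log2 change of 0.41, beside 21 and 2 of the 29 expression genes and 1.18. In high against standard light their medians were -0.53, -0.49 and -0.01 at 2, 5 and 8 h, with 3 genes of the NDH complex lower at 2 h (ndhA by -1.08, ndhF by -1.51 and ndhG by -1.12) and 9 lower at 5 h. At 8 h none passed in edgeR or limma voom (0 in each), 2 had an unadjusted p under 0.05 and DESeq2 called 1. For the high-light effect at 8 h minus that at 2 h, 38 of the 48 lay above 0 and 10 below, with a median of 0.56. In that contrast 3 of the 48 were called, all higher, where 10.2% of all loci were called. The expression genes had 27 of 29 above 0 and a median of 1.02. The difference between the 2 lists was not tested.

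Nuclear genes for plastid transcription (sigma factors, phage-type polymerases and proteins bound to the plastid-encoded polymerase) were listed as partners of the rpo genes, and all 22 were tested. In high against standard light 1 fell at 2 h, 10 rose at 5 h and 17 rose at 8 h, with medians of 0.04, 0.63 and 0.97. With the rRNA covariate 20 rose at 8 h, while at 5 h 4 rose, and 1 rose without the 5 libraries under 0.3% rRNA or without the 5 set apart. With libraries scaled to chloroplast counts 21 rose at 5 h and 12 at 8 h. At 8 h FLN1, for a fructokinase-like protein of the polymerase complex, rose by 1.83 ± 0.22 on the log2 scale, with means of 15 CPM in standard and 53.4 CPM in high light (adjusted p = 8.53e-06). FLN2, its relative, rose by 1.94 ± 0.24 on the log2 scale, with means of 14.9 CPM in standard and 57.2 CPM in high light (adjusted p = 1.32e-05). PDE312 and PTAC2, the latter for a protein of the transcriptionally active plastid chromosome, rose by 1.46 ± 0.21 and 1.21 ± 0.18. At 5 h the sigma factor gene SIGE rose by 1.82 ± 0.24 on the log2 scale, with means of 14.3 CPM in standard and 50.8 CPM in high light (adjusted p = 3.54e-05), and at 2 h the sigma factor gene SIGA fell by 0.92 ± 0.21 on the log2 scale, with means of 148 CPM in standard and 78.5 CPM in high light (adjusted p = 0.02). From dark to 2 h of standard light 17 of the 22 rose and 1 fell. For the high-light effect at 8 h minus that at 2 h, all 22 lay above 0, with a median of 0.88. Of these, 11 were called, where 10.2% of all loci were.

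Of 33 tested nuclear genes for plastid ribosomal proteins, 3 rose at 5 h and 8 at 8 h in high against standard light, with medians of 0.36 and 0.31. At 2 h none passed in edgeR or limma voom (0 in each), 6 had an unadjusted p under 0.05, DESeq2 called 1 higher and 1 lower, and the median was 0.21. RPL4, for plastid protein L4, rose at 8 h by 1.12 ± 0.19 on the log2 scale, with means of 94.7 CPM in standard and 206 CPM in high light (adjusted p = 0.00026). From dark to 5 h of standard light 25 of the 33 fell, with a median of -0.65, where 7 and 4 of the 29 chloroplast genes rose and fell. For the high-light effect at 8 h minus that at 2 h, 17 of the 33 lay above 0 and 16 below, with a median of 0.04. Of 9 genes for plastid RNA processing and binding, 4 rose at 5 h and 5 at 8 h in high light. Among them the RNA-binding protein gene CP29 rose at 8 h by 0.92 ± 0.22 on the log2 scale, with means of 174 CPM in standard and 329 CPM in high light (adjusted p = 0.00577). Of 10 tested nuclear partners of accD, clpP1 and ycf1, 1 rose and 1 fell at 8 h: emb1211 rose by 1.40 ± 0.19 on the log2 scale, with means of 108 CPM in standard and 283 CPM in high light (adjusted p = 2.78e-05), and CLPR4, for a subunit of the Clp core, fell by 0.58 ± 0.18 on the log2 scale, with means of 68.2 CPM in standard and 45.5 CPM in high light (adjusted p = 0.0305).

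The authors' deposited table of their own tests is labelled glmTreat, a test other than the F test used here. Its adjusted p-values are therefore not directly comparable with those above. In it, rpoB had a log2 fold change of 1.43 and an adjusted p of 0.000149 for 2 h of standard light against dark. In the authors' deposited table rps15 had 2.49 and 0.000821 and rpl33 -2.2 and 0.031 in the same comparison. All adjusted p-values in the authors' deposited table were under 0.05, so it names no gene above that value. Its entries for the members were all comparisons with dark, and none was for high against standard light.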

How the data were processed

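Per the labels' protocols, total RNA libraries were strand-specific and depleted of plant rRNA, and were read as single ends of 75 bases. The deposited values are raw counts per gene, which the authors made with featureCounts 1.5.0-p1 in reverse-stranded mode over 1 span per gene, per the file headers. The submitters' processing notes also name edgeR, SAMtools 1.3.1, Subread 1.5.0, Trim Galore 0.4.4 and FastQC 0.11.7. No source used here gives the genome build or the handling of reads that map to several places. How reads of identical copies were placed affects rpl2, rpl23, ycf2 and rps7. The authors' deposited table of comparisons gives log2 fold changes, average log2 CPM and adjusted p-values.

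The test was edgeR's quasi-likelihood F test (edgeR 4.0.16, R 4.3.3; TMM scaling, filterByExpr, robust dispersion, 1 coefficient per group, 21 libraries), with Benjamini-Hochberg adjustment over 19626 loci. A gene rose or fell where the adjusted p was under 0.05. Errors of log2 changes are the change over the square root of F. Alternatives were DESeq2 1.42.0, limma 3.58.1 voom, no filter, other scalings, the log2 rRNA share as covariate, only the groups compared, a replicate block, and each library left out. Removing rRNA loci, summing repeat copies, scaling without psbA and rbcL, and leaving out either set of 5 libraries were chosen after seeing the data. The members and lists were chosen with earlier results of these data known. Of the 30 members 28 are described singly and 2 are not reported here other than in counts and medians. From the lists at most 4 called genes per list with the smallest adjusted p are named. The code was tested on simulated data. A limit of 3 counts stands for a count of 0; it covers counting error only. Gene positions, names and sequences are from RefSeq TAIR10.1, where 29 of 30 members had the span of the files.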

Additional observations from a re-analysis of the deposited data

Results flagged for a closer look

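For 9 genes the effect of high light differed between 2 h and 8 h in the test of that difference (edgeR quasi-likelihood F test, Benjamini-Hochberg over 19626 loci). The effect at 8 h minus that at 2 h, on the log2 scale, was 2.98 for rps16, 2.39 for ycf1, 2.18 for rps15, 1.69 for rpoB, 1.66 for rpoC2, 1.57 for rpoC1, 1.51 for rps18, 1.27 for rpl16 and 1.15 for rps2. All lay above 0. Of the 12 libraries behind this contrast, the 2 groups with the most rRNA were 2 h of standard light and 8 h of high light. With the rRNA share in the fit, adjusted p-values were 0.0582 for rps16, 0.072 for rpl16, 0.0989 for rps18, 0.102 for rps15 and 0.251 for rps2, and under 0.05 for the other 4.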

How the results depend on the processing

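Numbers of genes called are given here for each comparison where a setting moved them by over 1.5 times. For high against standard light at 2, 5 and 8 h, where 6, 9 and 5 were called, DESeq2 called 15 at 2 h and 18 at 5 h, limma voom 18 at 5 h, and no filter on low counts 15 and 14 at 2 and 5 h. The rRNA covariate gave 1, 15 and 3, scaling to chloroplast protein-coding counts 1 and 4 at 2 and 5 h, and scaling to those counts without psbA and rbcL 2 at 8 h. The 1 gene called at 2 h with the covariate was not among the 6. Fitted on the 2 groups alone, edgeR called 0 at 5 h (11 at an unadjusted p under 0.05) and 13 at 8 h. Without the 5 libraries under 0.3% rRNA edgeR called 0, 0 and 9 (13 and 4 at an unadjusted p under 0.05 at 2 and 5 h), and without the 5 set apart by rpl33 over rps18 it called 17, 0 and 9 (8 at an unadjusted p under 0.05 at 5 h). For the mean of the times (13), the chloroplast scalings gave 5, of which 2 were higher, and 7, and leaving out low-rRNA libraries 3. For the effect at 8 h minus 2 h (9), the covariate gave 4, no filter 16, only the groups compared 15, and leaving out the libraries set apart 17.

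Against dark, 2 h of high light (4, all higher) gave 12 with the covariate and without low-rRNA libraries, 11 with no filter, 8 and 10 with the chloroplast scalings and 7 with only the groups compared, where 2 genes were lower with the covariate and 2 with no filter. For 5 h of high light (7, all lower) the covariate gave 12, limma voom 11 and only the groups compared 4, all lower. The calls there were 12 without low-rRNA libraries, 8 higher and 4 lower, and the chloroplast scalings gave 1, which was higher, and 2, of which 1 was higher and 1 lower. For standard light at 5 h (11), scaling to chloroplast counts gave 7, only the groups compared 20, and the leave-outs 17 and 6. At 8 h, standard light (7) gave 13 with no filter, 17 with only the groups compared and 16 without low-rRNA libraries, and high light (14) 23 with only the groups compared. Standard light at 2 h against dark (23) stayed at 20 to 26 in the settings that kept all replicates or left out those 5 libraries.

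Leaving out 1 library at a time gave 0 to 5, 3 to 23 and 1 to 3 calls for high against standard light at 2, 5 and 8 h, 9 to 24 for their mean and 6 to 11 for the difference of 8 h and 2 h. Against dark it gave 17 to 20, 2 to 11 and 4 to 11 in standard light and 1 to 8, 5 to 22 and 9 to 16 in high light at 2, 5 and 8 h, and 25 to 29 for any difference among groups. Counts of 0 at 2 h came from edgeR without replicate 1 of standard light or replicates 1 or 2 of high light, with 14 to 19 genes at an unadjusted p under 0.05. Deviations of same-numbered libraries from their group means had correlations of -0.144 to 0.0929. Libraries of different number were not compared, so this cannot exclude a shared batch. A replicate block gave 6, 13 and 4 calls for high against standard light at 2, 5 and 8 h.

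Directions turned under scaling to chloroplast protein-coding counts for the median at 5 h (0.079), the mean of the times (0.054), 5 h of high light against dark (0.22), ycf2 at 5 h (0.10) and, over the mean of the times, ycf2 (0.11) and rps12 (0.027). The median for 5 h of high light against dark also turned without psbA and rbcL in the scaling (0.11), without low-rRNA libraries (0.27) and without the libraries set apart (0.11). rpoA in that comparison turned to 0.0012 and 0.11 in the latter 2, and rpl33 at 2 h of standard light against dark to 0.011 in the last. For rpl33 this is a description, since its own counts were used to choose the libraries left out. Of the calls of single genes reported here, over all alternatives 1704 held, 414 lost significance and 6 turned. The causes were not tested. The 29 genes with counts had 8878 (rpl23) to 1312589 (rps14) counts over all libraries, and matK had 0.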
